A study of Mus musculus with 10 samples.

Results

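Vip interneurons of the mouse medial prefrontal cortex were taken from single-cell RNA sequencing libraries of socially dominant and subordinate animals. Kept cells had 500 or more genes with a UMI (unique molecular identifier, 1 count per captured RNA molecule) and no more than 15% mitochondrial UMIs. A kept cell counted as a Vip cell with at least 2 UMIs of the inhibitory genes Gad1, Gad2 and Slc32a1 in sum, at least 3 UMIs of Vip, under 10 of Sst and under 2 of Pvalb. At most 1 UMI in sum was allowed from the excitatory genes Slc17a7 and Neurod6, and at most 1 from the glial and endothelial genes Gja1, Cldn5 and Mog. The rule found 269 Vip cells among 48816 kept cells (64937 cell barcodes deposited), or 0.551%. They made up 14.5% of the 1857 GABAergic cells that met the same inhibitory, excitatory and glial limits. Every gene of the rule is a readout of these same cells, so the levels of Vip, Gad1, Gad2 and of the genes kept low describe the choice.

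All mice were male C57BL/6N, a common inbred strain, and over 2 months old, and the labels name no transgene, other allele or treatment. Rank1 mice were the dominants and Rank4 mice the subordinates of a hierarchy. Rank was read from tube tests, where a mouse wins by making its opponent back out of a narrow tube. Brains were taken 1 day after the last test. There were 5 libraries a rank, and each pooled tissue from 2 or 3 mice. The library was therefore the replicate, and a pool hides the differences between its mice. A p-value here measures the spread between pools.

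Vip interneurons arise in the caudal ganglionic eminence and release GABA together with vasoactive intestinal peptide, the product of Vip. Many of them contact other interneurons, above all those that make somatostatin, so that their firing can lift inhibition from pyramidal cells. They are known as a diverse class, with bipolar cells that make calretinin (Calb2) and small basket cells that make cholecystokinin (Cck).

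Vip defines the class and Cck marks its basket cells, so the 250 bases before the starts of these 2 peptide genes are shown. In both, the capitals TGACG, or CGTCA where the motif lies on the other strand, mark the core of the cyclic AMP response element; in the Vip promoter the capitals TATAAA mark the TATA box letters. The sequences are RefSeq's, build GRCm38.p6, written 5′ to 3′ on the strand of the gene: chr10:5638968-5639217, plus strand, for Vip, and chr9:121495695-121495944, minus strand, for Cck.
Vip: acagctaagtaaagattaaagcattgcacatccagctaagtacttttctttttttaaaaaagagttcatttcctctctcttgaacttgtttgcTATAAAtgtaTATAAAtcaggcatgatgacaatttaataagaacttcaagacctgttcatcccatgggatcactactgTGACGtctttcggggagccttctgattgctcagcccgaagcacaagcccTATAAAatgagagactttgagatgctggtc
Cck: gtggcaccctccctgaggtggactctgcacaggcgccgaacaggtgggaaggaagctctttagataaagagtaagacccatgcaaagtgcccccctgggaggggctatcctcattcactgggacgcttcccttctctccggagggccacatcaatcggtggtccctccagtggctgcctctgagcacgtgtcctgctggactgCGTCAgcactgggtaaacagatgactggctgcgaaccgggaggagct
In the Vip promoter TGACG starts 79 bases before the gene's start, and TATAAA lies at 157, 147 and 30 bases. In the Cck promoter the TGACG motif lies 47 bases before the start on the opposite strand. Among 32851 promoter windows of this length, 17.8% held TGACG and 12.4% held TATAAA, counting both strands. Of 19 genes in a list of neuropeptides and secreted factors, 16 had a window, and 11 of their 24 windows held TGACG. The match of letters is a description and not a measured site.

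The Rank1 libraries held 32, 15, 18, 22 and 29 Vip cells in replicates 1 to 5, and the Rank4 libraries 35, 10, 11, 28 and 69. Whole libraries held 4442750 to 29278466 UMIs, and the Vip cells of a library 23849 to 136994. The median Vip cell had 1700 to 3642.5 UMIs depending on the library and 1153 to 1854 genes. The matrix headers name software version 3.1.0 for replicates 1 to 3 and 4.0.0 for replicates 4 and 5 of both ranks. Any pair of libraries shared 0 to 104 of their deposited barcodes.

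Replicate 1 of both ranks stood apart from the other 8 libraries. There, 25.3% of astrocytes of Rank1 (135 of 534 cells) and 25.3% of Rank4 (161 of 636) held a Vip UMI, against 0.699% to 3.87% elsewhere. In excitatory neurons the shares were 28.3% and 23.8%, against 0.284% to 4.24%. These cells are not known to make Vip, so the shares give its background. The rule's minimum of 3 Vip UMIs was reached by 0.562% and 0.629% of these astrocytes. Vip cells of these 2 libraries also held fewer Vip UMIs, with medians of 14 and 9 against 15.5 to 58.5 in the other 8. Their median mitochondrial share was 8.07% and 11.6%, against 2.44% to 7.76%. Malat1, a nuclear RNA, made up 11.04% and 8.22% of their UMIs, against 3.97% to 6.91%. Values without these libraries, an alternative chosen after seeing the data, are given below.

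**Figure D1:**
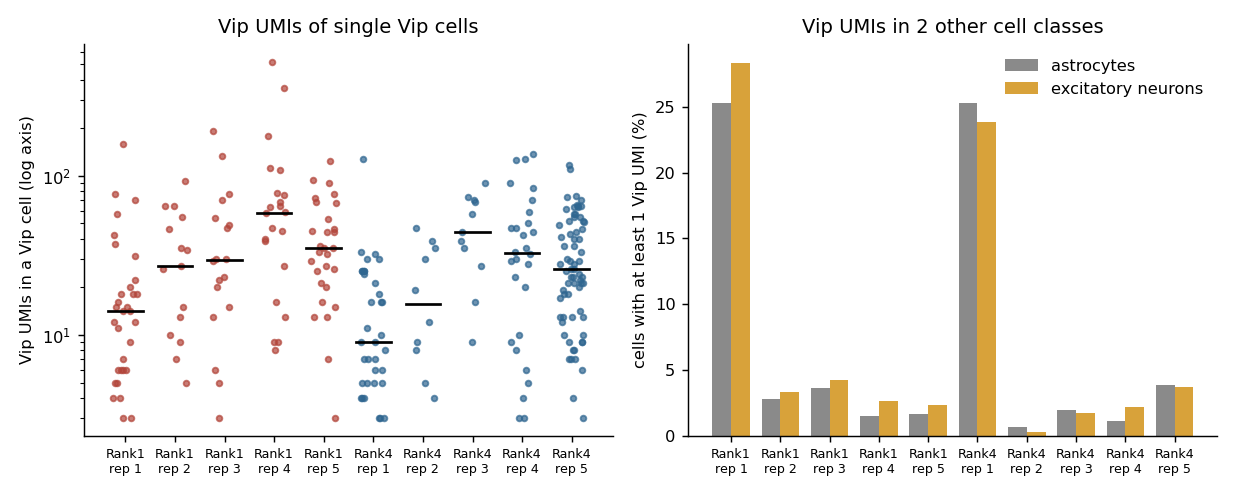
Left, Vip UMIs of each of the 269 Vip cells by library, on a log axis, with 3 as the lowest value the rule allows. Right, the percent of astrocytes and of excitatory neurons with at least 1 Vip UMI in each library; replicate 1 of both ranks reaches 23.8% to 28.3%, and no other library passes 4.24%.

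The label was checked with Adarb2 (chr13:8202866-8768747, plus strand), an RNA-editing enzyme relative that marks interneurons of caudal origin and was not part of the rule. At least 1 Adarb2 UMI was found in 231 of 269 Vip cells (85.9%). The share was 1.23% in Sst cells, 0.528% in astrocytes and 1.80% in excitatory neurons, which give the background. Summed over all Vip cells Adarb2 reached 1280 CPM (UMIs scaled to a common library total), with 708 to 1752 CPM in single libraries. In Sst cells it was 3 CPM, in Pvalb cells 10 CPM and in Lamp5 cells 322 CPM. The 4 markers of the class, Vip, Gad1, Gad2 and Adarb2, were thus present in every library.

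Around the minimum of 3 Vip UMIs the cells changed gradually. Among GABAergic cells that met every other limit, Adarb2 was detected in 24.3% of 978 cells with no Vip UMI and in 34% of 100 cells with 1. It was detected in 14 of 25 cells with 2 Vip UMIs, just outside the rule, at 703 CPM. Just inside, with 3, it was detected in 5 of 10 cells at 588 CPM. The share was 77.8% of 54 cells with 4 to 9 Vip UMIs and 89.8% of 205 cells with 10 or more, at 1089 and 1338 CPM. Among the 25 cells with 4 to 9 Vip UMIs in replicate 1 of both ranks, 80% held Adarb2. Outside these libraries 6 of 6 cells with 2 Vip UMIs held it.

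Genes listed as regulators of the caudal lineage were present, though not all are particular to it, and most genes of the medial lineage were low. Prox1, a homeobox factor of caudally derived interneurons, was at 257 CPM over all Vip cells and at 2, 0 and 137 CPM in Sst, Pvalb and Lamp5 cells. Zeb2, a zinc finger factor needed by migrating interneurons, was at 522 CPM, against 303, 426 and 336 CPM in Sst, Pvalb and Lamp5 cells. The non-coding RNA Dlx6os1, next to the Dlx homeobox genes, was at 474 CPM, against 44.9, 72.6 and 437 CPM, so that Lamp5 cells were close to Vip cells. Of the medial factors, Lhx6 had 3 UMIs and Sox6 had 5 in all 269 cells. Nxph1, a secreted neurexin ligand, had 13 UMIs, or 18 CPM against 509, 546 and 347 CPM in Sst, Pvalb and Lamp5 cells. The chromatin organizer Satb1 was at 45 CPM, against 681 CPM in Sst cells. Maf, another factor of the medial list, was not low: it was at 149 CPM, against 129, 110 and 236 CPM in Sst, Pvalb and Lamp5 cells. Lamp5 had 3 UMIs, Ndnf 2 and Pvalb 4.

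Other interneurons were gated in the same way to set these levels in context: 407 Sst cells, 77 Pvalb cells and 143 Lamp5 cells. Because all classes were chosen by gene counts, the comparison is a description with no test. Of 3739 genes with a median of at least 50 CPM over libraries in Vip cells, 35 were above the highest of the other classes in all 10 libraries. Genes of the rule were not taken out of this count. Pvalb cells were few, with 0 in Rank4 replicate 2 and 1 to 27 in the other libraries. In Rank4 replicate 2 the highest was taken from Sst and Lamp5 cells. The 20 farthest above were ranked by the median over libraries of log2((Vip CPM + 10)/(highest other CPM + 10)).

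Several of these 20 encode secreted signals. Cxcl14, a chemokine, had the largest difference among the 20 with the rule's genes left out, 4.52 on that log2 scale and a median of 1070 CPM over libraries, against 13.0 in Sst and 22.0 in Lamp5 cells. It is also abundant in astrocytes (764 CPM over all, a UMI in 69.5% of them). In Sst cells from the same libraries, which were deeper, 5.41% held a Cxcl14 UMI, against 40.9% of Vip cells. Tac2, the precursor of neurokinin B, differed by 3.46, with 282 to 3570 CPM in single libraries and 8 CPM in astrocytes. Penk, the enkephalin precursor, differed by 3.44 and had a median of 442 CPM. Without replicate 1 of both ranks the medians were 1163 CPM for Cxcl14, 2077 for Tac2 and 494 for Penk, each above the median of all 10 libraries. Cbln2, a secreted synapse organizer, differed by 3.69 and Pthlh, parathyroid hormone-like hormone, by 2.89.

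Receptors and transporters formed another share. Npy2r and Npy1r, receptors for neuropeptide Y, differed by 4.18 and 2.91, at medians of 213 and 185 CPM. Htr3a, the ionotropic serotonin receptor subunit, differed by 3.53 and ranged from 43.4 to 829 CPM over libraries. Htr2c, a G protein-coupled serotonin receptor, differed by 2.17. Slc5a7, the choline transporter of cholinergic terminals, differed by 3.37 in 9 of 10 libraries with a median of 98.4 CPM and was at 0 in the median Sst, Pvalb and Lamp5 library. Asic4, an acid-sensing channel family member, differed by 2.45 and Rgs12, a regulator of G protein signaling, by 2.32, both in 10 of 10 libraries. The other genes were Sorcs1, Fbln2, Sema5b, Tpbg, Shisa8, Gpd1, Cadps2 and Sall1.

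The 10 genes farthest under all 3 other classes were led by Nxph1, at -5.14 on the scale against the lowest class and under it in 9 libraries. Ptprm, a receptor phosphatase, followed at -2.82 and the transcriptional regulator Tox3 at -2.38. Gria3, an AMPA receptor subunit, was at -1.69, with a median of 62.3 CPM against 391, 405 and 264 CPM in Sst, Pvalb and Lamp5 cells. Adcy1, an adenylyl cyclase, was at -1.24. The rest were Mpped1, Cap2, Coro6, Kcns3 and St8sia4.

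**Figure D2:**
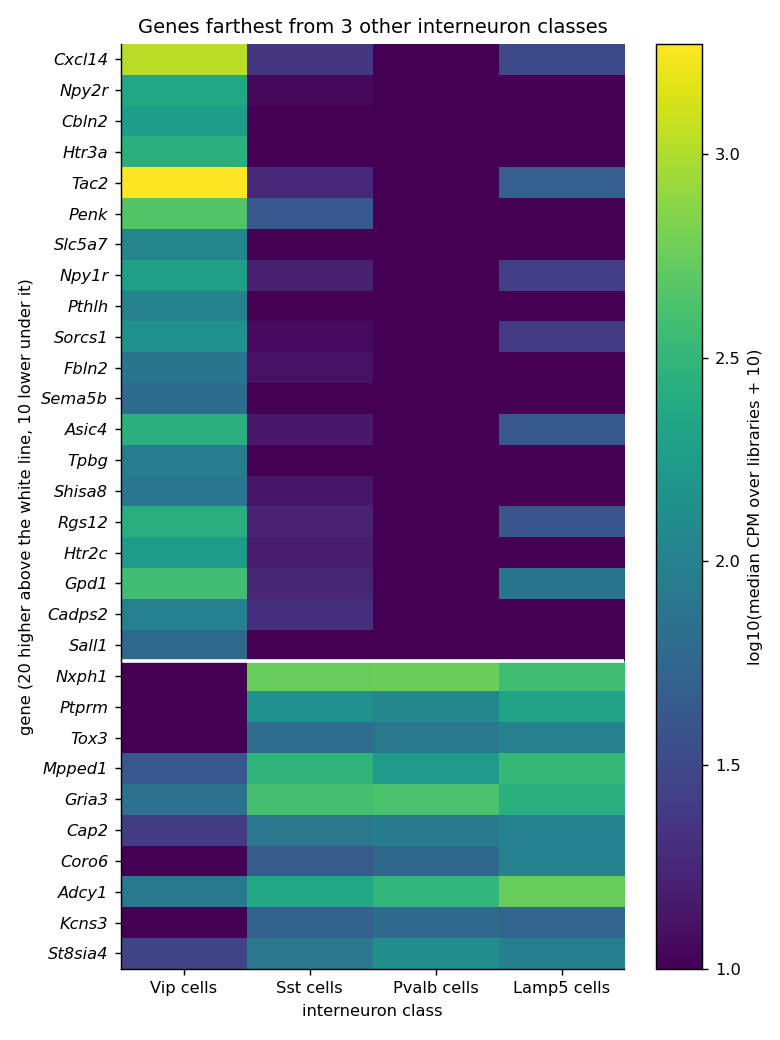
Median CPM over libraries, as log10 with 10 added, of the 20 genes farthest above and the 10 farthest under the other interneuron classes. Each column is a class and each row a gene; Cxcl14 and Tac2 are the brightest of the upper block in Vip cells, and Nxph1 is dark there and bright in the other columns.

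Of 34 receptor genes in a list, 8 had no UMI in any Vip cell, among them Oxtr and Avpr1a, the receptors for oxytocin and vasopressin, and Esr1 and Esr2, the estrogen receptors. Vipr1, Vipr2 and Crhr1, receptors for VIP and for corticotropin-releasing hormone, had 1 UMI each. The G protein-coupled serotonin receptor Htr2a had 3. At these counts a low level could not have been detected. Adra1b, an adrenergic receptor, was at 296 CPM against 26, 10 and 104 CPM in the other classes. Cnr1, the cannabinoid receptor, was at 1473 CPM against 384, 53 and 214 CPM. Erbb4, the neuregulin receptor, was at 359 CPM, under the 806 CPM of Pvalb cells.

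A list of 14 transcripts known from Vip subtypes was counted in 212 cells after thinning each to 1500 UMIs, which left out 57 shallower cells. Brackets give Wilson 95% intervals, which cover counting error only. Synpr, a synaptic vesicle protein gene, was detected in 74.5% of them and Cnr1 in 72.2%. Cck was detected in 63.7% [57.0 to 69.9], Calb2 in 34.0% [27.9 to 40.6], Tac2 in 35.8% and Cxcl14 in 34.9%. Penk and Igf1, the insulin-like growth factor, were each in 34.0%, and Crh, the corticotropin-releasing hormone precursor, in 29.2%. Without thinning the shares in all 269 cells were higher, with 75.5% for Cck, 44.6% for Calb2 and 36.1% for Crh.

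These shares have to be read against cells of other types. Calb2 was detected in 2.13% of astrocytes and 2.18% of excitatory neurons, Crh in 0.293% and 0.382%, Penk in 0.840% and 3.29%, and Tac2 in 1.74% and 1.43%. Without replicate 1 of both ranks Calb2 was in 0.937% and Tac2 in 0.279% of astrocytes. In Sst cells Calb2, Crh, Penk and Tac2 were in 15.5%, 14.3%, 8.11% and 3.93%, against 44.6%, 36.1%, 38.7% and 41.6% of Vip cells without thinning. Slc5a7 and Pthlh were in under 1% of Sst cells, astrocytes and excitatory neurons. Synpr and Cnr1 were also found in many other neurons: without thinning Synpr was in 82.2% of Vip cells and 76.9% of Sst cells, and Cnr1 in 81.0% and 63.9%, with 27.6% of excitatory neurons. Sst cells were deeper, so these shares are a description only. Igf1 was in 46.1% of Vip cells, 19.2% of Sst cells and 0.469% of astrocytes without thinning. The median astrocyte had 1418 to 3598 UMIs depending on the library and the median Vip cell 1700 to 3642.5. Cck needs more care, since it was detected in 72.7% of excitatory neurons, which make it, and in 44.7% of astrocytes, which are not known to. At least 3 Cck UMIs were held by 42.8% of Vip cells and 10.4% of astrocytes, and without replicate 1 of both ranks by 39.6% and 2.38%. Excitatory neurons held 1592 CPM of Cck over all, under the 3333 CPM of Vip cells.

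The cholinergic genes were rare. Slc5a7 was detected in 14.6% of the thinned cells, Slc18a3, the vesicular acetylcholine transporter gene, in 3.30%, and Chat, the enzyme that makes acetylcholine, in 1 cell (0.472%). In all 269 cells without thinning Chat had 4 UMIs in 4 cells. Pthlh was detected in 11.8% of the thinned cells and Crispld2, a secreted protein gene, in 2.36%.

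Transcripts were not spread evenly over the Vip cells. Tac2 and Cxcl14 were often found together: 52 of 76 cells with Tac2 held Cxcl14 (68.4%), against 16.2% of cells without Tac2. Cck went with both. Of 135 cells with Cck, 64 held Cxcl14 (47.4%, against 13.0% without Cck) and 45.2% held Tac2 (against 19.5%). Calb2 cells were different. Of 72 with Calb2, 48.6% held Cck (against 71.4% without) and 13 held Cxcl14 (18.1% against 43.6%). Penk was found in 32 of the 72 (44.4% against 28.6%). Slc5a7 and Cxcl14 almost never met, in 1 of 74 cells with Cxcl14 (1.35% against 21.7%). These are descriptions over cells of 10 pools, with no test.

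**Figure D3:**
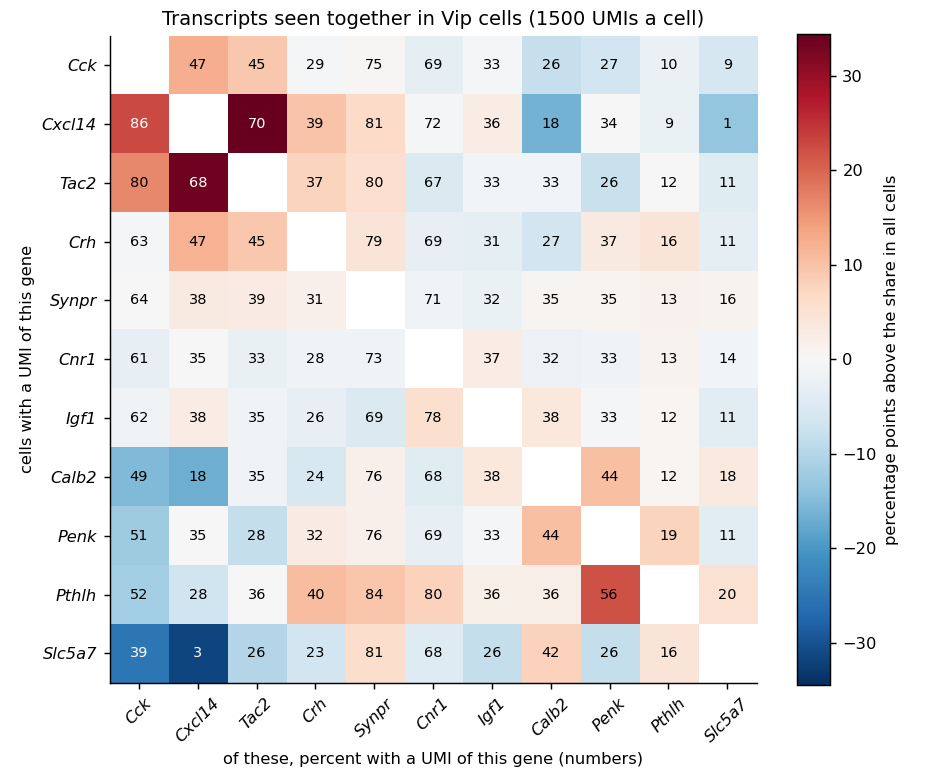
Percent of Vip cells with the transcript in the row that also hold the transcript in the column, in 212 cells thinned to 1500 UMIs. Red squares lie above the share in all cells and blue ones under it; Cck, Cxcl14 and Tac2 form a red block, and Cxcl14 and Slc5a7 meet in 1 cell.

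Levels were then set side by side in summed counts of all 269 cells. Cck was at 770 CPM in the 104 cells with a Penk UMI and at 4845 CPM in the 165 without, and was higher with Penk in 0 of 10 libraries. Cnr1 was at 741 and 1902 CPM, again with no library higher in Penk cells. Calb2 was at 781 and 317 CPM, higher with Penk in 9 libraries. In the split by Calb2, though, Penk was at 484 CPM in cells with Calb2 and at 383 CPM in cells without, higher in 5 of 10 libraries. Between the 55 cells with Slc5a7 and the 214 without, Cck was at 848 and 4030 CPM and Cxcl14 at 195 and 1075 CPM. Rank1 replicate 3 held no cell with Slc5a7 and the other 9 libraries 1 to 12, so few libraries can be compared. Of these 9, Cck was higher with Slc5a7 in 0 and Cxcl14 in 1. Npy, neuropeptide Y, was at 58.5 CPM in the 120 cells with Calb2 and at 441 CPM in the 149 without. Tac2 was at 2091 CPM in the 97 cells with Crh and at 1207 CPM in the others, higher in 9 libraries.

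Depth moved with these divisions. The median cell with Calb2 had 2648.5 UMIs and the median cell without 2016. The medians were 2587 and 1995.5 for Cck, 2486 and 2288 for Penk and 2469 and 2348 for Slc5a7. For this reason the shares were taken at a fixed depth.

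The levels of subtype genes also varied between libraries. Calb2 ranged from 253 to 1515 CPM and Cck from 908 to 7898 CPM. Within Rank4, replicate 2 held 1301 CPM of Calb2 against 253 to 425 in the other 4, from 10 cells. Synpr ranged from 553 to 3406 CPM, with replicates 4 and 5 of both ranks at 553 to 976 and the other libraries at 1120 or more.

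The first comparison of ranks asked whether dominants and subordinates differ in the share of Vip cells. The Rank1 libraries held 0.651%, 0.763%, 1.23%, 1.09% and 0.370% Vip cells among kept cells in replicates 1 to 5, and the Rank4 libraries 0.712%, 0.575%, 0.293%, 0.435% and 0.502%. The means were 0.820% ± 0.344 and 0.503% ± 0.156 (SD, n = 5 each). The groups overlapped, and Rank1 was higher in 3 of 5 same-numbered pairs. The difference of 0.317 percentage points was not past the threshold in a two-sided exact permutation test over the libraries (p = 0.111; the smallest p that 252 divisions allow is 0.00794). Replicates 1 to 3 alone gave 0.354 points and replicates 4 and 5 alone 0.260 points. An exact permutation of the signs within pairs gave p = 0.312, but with 5 pairs that test cannot fall under 0.05. With at least 1000 genes per cell the difference was 0.503 points (exact permutation p = 0.0317), and without Rank1 replicate 5 it was 0.429 points (exact permutation p = 0.0317). With each cell thinned to 1000 UMIs before the rule was applied, which left out 183 to 1681 shallower cells of each Rank1 library and 0 to 3778 of each Rank4 library, the means were 0.570% ± 0.141 and 0.419% ± 0.117, and the difference was 0.1504 points (exact permutation p = 0.103).

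Among GABAergic cells the share was 14.3%, 18.1%, 26.5%, 20.2% and 12.9% in Rank1 and 17.0%, 20.8%, 14.5%, 10.9% and 12.3% in Rank4. The means were 18.4% ± 5.35 and 15.1% ± 3.96 (SD, n = 5), a difference of 3.31 points (two-sided exact permutation p = 0.302) that was within the spread. At 1000 UMIs a cell it was 0.635 points, with means of 14.1% and 13.4% (exact permutation p = 0.706). Median UMIs of Vip cells were 2818 ± 565 and 2370 ± 621 (exact permutation p = 0.278), higher in Rank1 in 4 of 5 pairs, with a difference of 131 UMIs within replicates 1 to 3 and of 924 within replicates 4 and 5. Without replicate 1 of both ranks the difference was 0.411 points of kept cells (exact permutation p = 0.114) and 4.80 points of GABAergic cells (exact permutation p = 0.257).

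**Figure D4:**
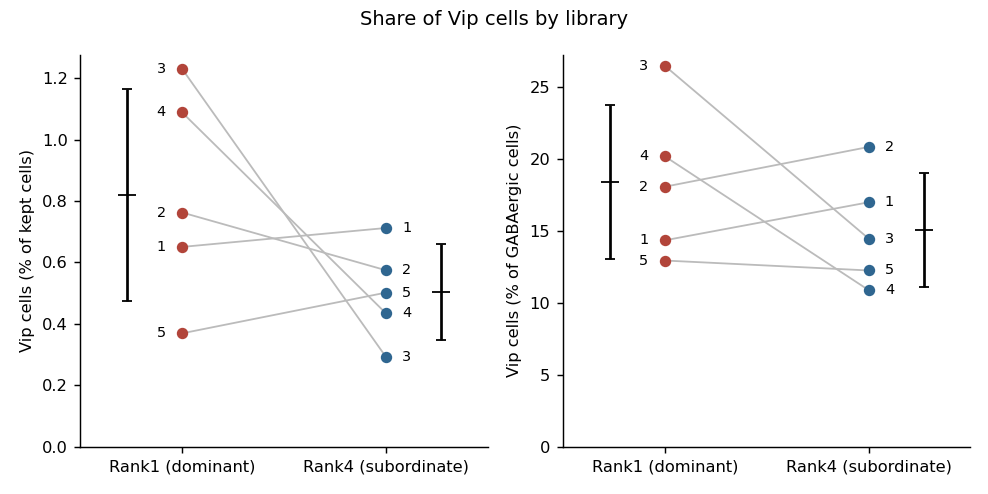
Vip cells as a percent of kept cells (left) and of GABAergic cells (right); each point is a library with its replicate number, grey lines join same-numbered libraries, and the black marks are means with SD. The 5 Rank1 points lie between 0.370% and 1.23% of kept cells and the 5 Rank4 points between 0.293% and 0.712%.

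None of 14 subtype transcripts differed between ranks in its share of Vip cells after adjustment (0 of 14 past an adjusted p of 0.05, 1 at an unadjusted p under 0.05). With 5 Rank1 and 3 Rank4 libraries of at least 10 thinned cells, the smallest exact p was 0.0357, and times 14 that is 0.5. No single transcript could pass alone. Synpr reached that p, with 84.9% ± 11.1 in Rank1 and 59.9% ± 9.28 in Rank4 (exact permutation p = 0.0357, adjusted 0.5). The Rank4 libraries here were replicates 1, 4 and 5, so the groups were unequal in software version, and replicates 4 and 5 of both ranks had the lowest Synpr levels. The 2 Rank4 libraries left out, with 7 and 8 cells, both had it in 100% of them. With replicates 1, 4 and 5 of both ranks only, an alternative chosen after seeing the data, the means were 79.4% and 59.9% (exact permutation p = 0.1, the smallest possible; adjusted 0.7). Slc5a7 had the same p there, with 22.7% in Rank1 and 12.6% in Rank4 and no overlap, though over all 8 libraries its difference was 2.59 points. Igf1 was in 22.0% ± 14.5 and 45.4% ± 7.76 (exact permutation p = 0.0714, adjusted 0.5) and Tac2 in 47.2% ± 21.1 and 25.5% ± 9.91 (exact permutation p = 0.143). With replicates 1, 4 and 5 only they were 29.3% and 45.4% for Igf1 and 33.6% and 25.5% for Tac2. Over all 5 same-numbered pairs, with the Rank4 libraries of 7 and 8 cells included, the Igf1 share was lower in Rank1 in 5. The Tac2 share was higher in Rank1 in 3 of the 5. The pairs of these shares were not tested. Cnr1 differed by -1.44 points in the thinned cells. Without thinning, where all 10 libraries could be used and the median Rank1 cell was deeper in 4 of 5 pairs, it was in 81.25% to 88.9% of cells in Rank1 and in 60% to 81.2% in Rank4, with no overlap (exact permutation, adjusted p = 0.111).

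Gene expression of the Vip cells was then compared between ranks in counts summed per library. Of 1142 genes that passed the count filter, 0 were called at an adjusted p of 0.05 (0%; lowest adjusted p 0.983). The fit was edgeR's, of quasi-likelihood type, with the software version as covariate and Benjamini-Hochberg adjustment. At an unadjusted p under 0.05 there were 49 genes, or 4.29%, with 20 higher and 29 lower in Rank1. DESeq2 also called 0, with 50 under 0.05. With the replicate number as a block in place of the version, 138 genes had an unadjusted p under 0.05 and 6 passed adjustment (0.525%), 3 higher and 3 lower in Rank1. The labels do not say what the number stands for. Same-numbered libraries of the ranks deviated together (correlations of 0.583 to 0.695 over genes), but within a version replicates 2 and 3, and 4 and 5, did so about as closely across numbers (0.574 to 0.630), and replicate 1 alone stood apart. The calls with the block therefore rest on a pairing that the data show clearly for replicate 1 only.

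Vip itself gave a log2 difference of 0.07 (SE 0.49) between ranks, with means of 14705 CPM in Rank1 and 14605 CPM in Rank4 (edgeR adjusted p = 1). Single libraries ranged from 5419 to 23400 CPM in Rank1 and from 5150 to 22282 in Rank4, and the lowest of each was replicate 1. Gad2, which makes GABA, was at 0.11 and Adarb2 at 0.52 (unadjusted p = 0.0896). Gad1 (chr2:70553072-70602014, plus strand), the other GABA-making enzyme, was at 1506, 1978, 1821, 1082 and 1315 CPM in Rank1 and at 820, 1343, 1417, 853 and 790 CPM in Rank4. Each Rank1 library was above its Rank4 pair, though the groups overlapped. The log2 difference was 0.64 (SE 0.26, unadjusted p = 0.0210), with an edgeR adjusted p of 0.983, and 0.0695 with the replicate block. Gad1 belongs to the rule.

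Rgs12 (chr5:34949445-35039644, plus strand) had the smallest p and was called with the block. It was at 249, 601, 397, 694 and 275 CPM in Rank1 and at 123, 210, 354, 241 and 142 CPM in Rank4. Each Rank1 library was above its pair, and the groups overlapped only where the Rank4 replicate 3 value of 354 lay above Rank1 replicates 1 and 5. The log2 difference was 1.23 (SE 0.37, edgeR adjusted p = 0.983), and with the block it was 1.13 (SE 0.26, edgeR adjusted p = 0.0101). Without replicate 1 of both ranks it was 1.33 (edgeR adjusted p = 0.208), and Penk and Ndufa5 also had an edgeR adjusted p of 0.208 there. With at most 10% mitochondrial UMIs it was 0.71. That limit left Rank4 replicates 1 and 2 with 5 and 9 Vip cells, under the minimum of 10 a library, so both were left out of the fit. As given above, Rgs12 is also one of the genes farthest above other interneurons in level.

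Zeb2 (chr2:44983632-45117395, minus strand) was at 665, 476, 505, 764 and 564 CPM in Rank1 and at 309, 294, 212, 427 and 545 CPM in Rank4, higher in Rank1 in 5 of 5 pairs. Its log2 difference was 0.82 (SE 0.28, edgeR adjusted p = 0.983), and with the block it was 0.81 (SE 0.22, edgeR adjusted p = 0.0565). Within replicates 4 and 5 it was 0.53. Cnr1 (chr4:33924593-33948831, plus strand) was at 1536, 901, 2470, 2458 and 1329 CPM and at 653, 839, 850, 1521 and 1541 CPM. Rank4 replicates 1 to 3 lay under every Rank1 library, and replicates 4 and 5 lay within the Rank1 range. The log2 difference was 0.84 (SE 0.32, unadjusted p = 0.0155; edgeR adjusted p with the block 0.0604), and 0.43 with at most 10% mitochondrial UMIs. Htr2c was at 0.74 (unadjusted p = 0.0406), higher in Rank1 in 5 of 5 pairs, and at 0.40 with that limit. As above, the limit left Rank4 replicates 1 and 2 out of the fit.

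Genes with lower counts in Rank1 included subtype genes. Penk (chr4:4133531-4138819, minus strand) was at 300, 451, 433, 412 and 217 CPM in Rank1 and at 256, 1217, 956, 594 and 537 CPM in Rank4. The 4 highest libraries were all Rank4, while Rank4 replicate 1 was among the lowest. The log2 difference was -0.79 (SE 0.33, unadjusted p = 0.0252; edgeR adjusted p with the block 0.0925). With at least 1000 genes a cell it was -0.11, and with at least 20 cells a library -0.39. At 1000 genes Rank4 replicates 2 and 3, the highest for Penk, held 7 Vip cells each and were left out of the fit. At 20 cells replicates 2 and 3 of both ranks were left out. Igf1 was at 95, 200, 252, 294 and 260 CPM in Rank1 and at 317, 294, 425, 315 and 395 CPM in Rank4. All pairs were lower in Rank1, and the groups overlapped only at 294 CPM. Its log2 difference was -0.65 (unadjusted p = 0.0463), and -0.36 without replicate 1 of both ranks.

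Ndufa5, a subunit of respiratory complex I, was called with the block. It was at 176, 326, 433, 153 and 217 CPM in Rank1 and at 362, 713, 992, 334 and 371 CPM in Rank4, lower in Rank1 in every pair. The log2 difference was -0.98 with and without the block (SE 0.24 with it, edgeR adjusted p = 0.0175, against 0.983 without it), and -0.62 with at least 1000 genes a cell. As above, Rank4 replicates 2 and 3, the highest for Ndufa5, were left out of the fit at 1000 genes. Other genes with small unadjusted p were Napb (0.87), Ndufb9 (-0.77), Atpif1 (-0.78), Rpl17 (-0.75) and Rpl18 (-0.80), each as a log2 difference. Rpl31, a ribosomal protein gene, was at -1.01 with the block (edgeR adjusted p = 0.0423) and at -0.95 without it (edgeR adjusted p = 0.983), and lower in Rank1 in all pairs but 1.

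The other calls with the block came from genes of uncertain origin. AC149090.1, an unnamed gene model, was at 1.02 (edgeR adjusted p = 0.0101), or 1.13 without the block (edgeR adjusted p = 0.983), and highest at 2706 CPM in Rank1 replicate 1, against 397 to 1047 in the other Rank1 libraries. Without that library its difference was 0.26. Gm42418, which overlaps ribosomal RNA sequence, was at 1.16 (edgeR adjusted p = 0.0423), or 1.26 without the block (edgeR adjusted p = 0.983), and at 0.46 without Rank1 replicate 1. It ranged from 10113 to 22659 CPM in replicates 4 and 5 and from 35.4 to 680 CPM in replicates 1 to 3, so that the libraries of the 2 software versions did not overlap.

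Hbb-bs, a haemoglobin gene of red blood cells, was the remaining call, at -1.75 with the block (edgeR adjusted p = 1.44e-06) and at -1.49 without it (edgeR adjusted p = 0.983). Of its UMIs, 163 of 178 in Rank4 replicate 4 and 207 of 222 in Rank4 replicate 5 came from a single cell in each. Without these 2 cells, an alternative chosen after seeing the data, its difference was -0.01 (edgeR adjusted p = 0.997), and 0.20 with the block (edgeR adjusted p = 0.857). The block then called 11 of 1136 genes (0.968%), 5 of them among the 6 above, and 0 were called with the version covariate. Cnr1 was then at 0.76 and Zeb2 at 0.80 (edgeR adjusted p = 0.0476 for each). The others added with the block were Serpine2, a protease inhibitor gene, at 0.94 (edgeR adjusted p = 0.0366) and AY036118 at 1.02 (edgeR adjusted p = 0.0293), the latter with 0 UMIs in replicates 2 and 3 of both ranks. The ribosomal protein genes Rplp1 and Rps24 were added at -0.78 and -0.83 (edgeR adjusted p = 0.0476 and 0.0498). In all cells and with the version covariate these 4 were at 0.98, 1.22, -0.86 and -0.87 (edgeR adjusted p = 0.983 for each).

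**Figure D5:**
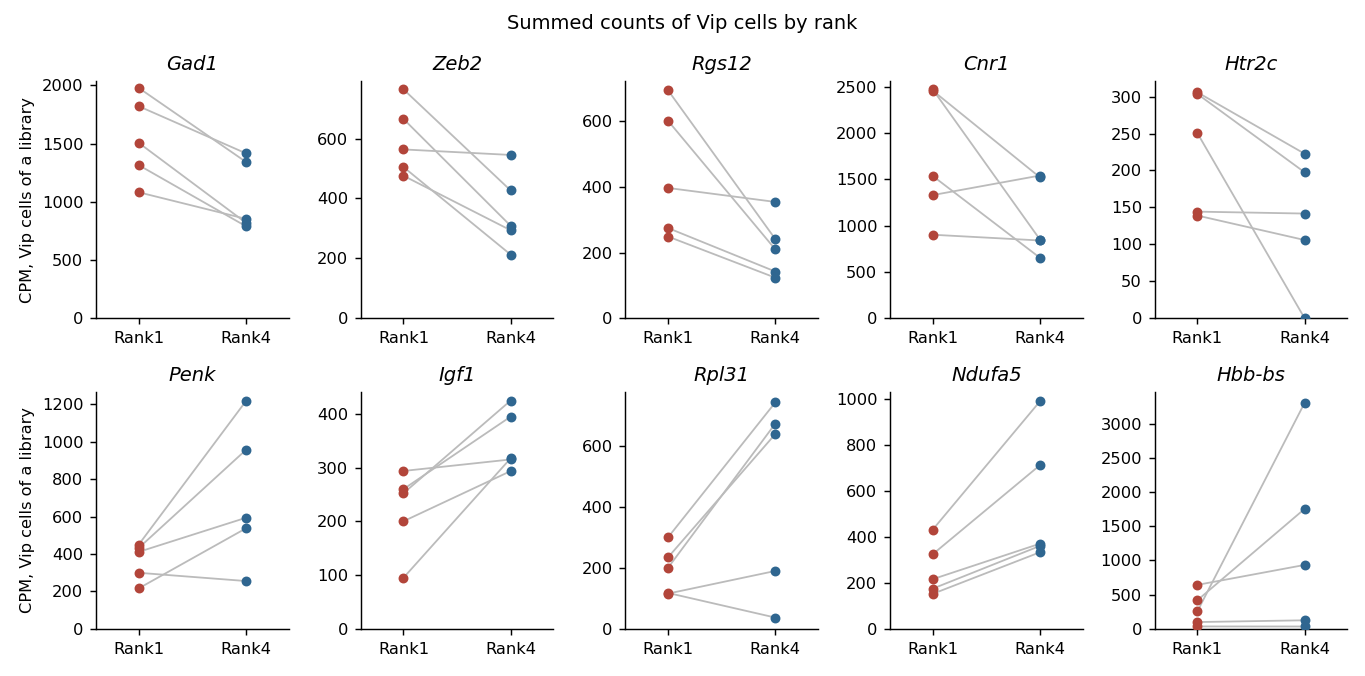
CPM of 10 genes in the summed counts of the Vip cells of each library, with grey lines joining same-numbered libraries of Rank1 and Rank4. Rgs12, Zeb2, Gad1 and Htr2c are lower in Rank4 in every pair, Igf1 and Ndufa5 are higher in Rank4 in every pair, Rpl31 in all pairs but 1, and the 2 high Rank4 points of Hbb-bs each rest on 1 cell.

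By list, against 596 higher and 546 lower genes of all 1142 and a median log2 difference of 0.02, the tested members were as follows. All 7 tested of 15 genes listed as caudal-lineage regulators were higher in Rank1, with a median of 0.51. Zeb2 alone had an unadjusted p under 0.05 (3 genes with the replicate block). As given above, Zeb2 was also expressed in Sst and Pvalb cells, so it is not particular to that lineage. The 5 tested of 7 genes for GABA synthesis, release and uptake were all higher, with a median of 0.43 and Gad1 alone under 0.05 (3 genes with the replicate block). Their summed level was 3706 to 4176 CPM in Rank1 and 2610 to 3544 CPM in Rank4, but 3 of the 7 genes are in the rule. The 5 tested of 34 receptor genes were all higher (median 0.62), with Cnr1 and Htr2c under 0.05. The lists share genes, so they do not count separately. Cnr1 is also in the subtype list and the Lamp5 and Sncg list, and Htr3a in the caudal list. Gad1, Gad2 and Adarb2 are also Vip-class markers. Of 14 subtype genes 9 were tested, with 6 higher and 3 lower (median 0.35); Cnr1 was higher and Penk and Igf1 lower at p under 0.05.

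All 4 Vip-class markers had a log2 difference above 0 (median 0.31), but Vip, Gad1 and Gad2 belong to the rule. Vip and Gad2 were near 0, at 0.07 and 0.11, and the Gad2 mean was 839 CPM in Rank1 and 852 CPM in Rank4. Cnr1 and Cck, the 2 tested of 11 Lamp5 and Sncg interneuron markers, were higher (median 0.75). Of 9 medial-lineage markers Maf alone was tested, at 0.28. The other lists of neuronal genes were small or mixed. Of the neuropeptides 7 of 19 were tested, with 4 higher and 3 lower (median 0.03). The glutamate receptors gave 4 higher and 1 lower of 14 and the growth factor genes 2 and 2 of 8. Among 20 immediate early genes, which are induced by activity and by dissociation, 4 were tested, with 3 higher and 1 lower, and Egr1 was at -0.86 (unadjusted p = 0.0420). For Egr1 it was -0.28 without replicate 1 of both ranks and -0.05 with at most 10% mitochondrial UMIs, which left Rank4 replicates 1 and 2 out. Fos was at 0.04. Of 11 heat shock chaperones 7 were tested, 5 higher and 2 lower, with none under 0.05. Of 13 glucocorticoid-responsive genes Mt1 alone was tested, at -1.02 (unadjusted p = 0.0636).

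Markers of other cell types stand beside these results. All 4 tested of 8 astrocyte markers were lower in Rank1 (median -0.59), with Mt3 at -0.73 (unadjusted p = 0.0359). Mt3 was at -0.43 without Rank4 replicate 5, at -0.40 within replicates 1 to 3 and at -1.31 within replicates 4 and 5. The summed level of the list was 882 to 2113 CPM in Rank1 and 923 to 3528 CPM in Rank4, and in astrocytes themselves it was 37743 CPM. No member of the oligodendrocyte, precursor, microglia, endothelial or mural lists passed the filter. Summed microglia markers were 106 to 1104 CPM and 106 to 1340 CPM, with replicate 1 highest in both ranks, and oligodendrocyte markers 25.0 to 1098 and 177 to 1041 CPM. Excitatory markers were at 198 to 983 and 126 to 1146 CPM. Of 7 excitatory markers Camk2a alone was tested, at -0.28, and of 4 haemoglobin genes Hbb-bs alone. The part of such RNA in the differences between ranks was not tested.

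Whether Vip cells differed between ranks in another way than the other interneurons was tested with a rank by class term against the Sst, Pvalb and Lamp5 cells of the same libraries. Of 3686 genes 0 passed (0%; edgeR, lowest adjusted p 0.0860), and 120 had an unadjusted p under 0.05. The leading genes were the haemoglobin genes Hbb-bs (-2.06) and Hba-a2 (-2.72). Without the 2 cells above 0 of 3636 passed (lowest edgeR adjusted p 0.460). Rgs12 was at 1.28 in this term (edgeR adjusted p = 1), so its difference between ranks was not shown to be particular to Vip cells.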

How the data were processed

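Per the labels' protocols, prefrontal tissue was dissociated with papain and loaded on the 10x Genomics system. The deposited matrices hold raw UMI counts per gene and cell barcode. The submitters' processing notes name Cell Ranger 4.0.0 and mm10, while the file headers give version 3.1.0 for replicates 1 to 3 (31053 genes) and 4.0.0 for replicates 4 and 5 (32285 genes). The 30406 shared genes were used. Gene positions are from GENCODE M21 on GRCm38 (99.7% of the shared genes matched).

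Cells were chosen by the count rule of the report. No doublet caller was run; the limits on markers of other classes, and a stricter version as an alternative, stood in for it. Groups were taken from the sample titles. The members and gene lists were chosen with earlier results of these data known. Counts of Vip cells were summed per library (at least 10 cells) and fitted with edgeR 4.0.16 (quasi-likelihood, TMM, filterByExpr with a minimum count of 10) in R 4.3.3, with the software version as covariate and calls at a Benjamini-Hochberg adjusted p of 0.05. DESeq2 1.42.0 was an alternative. The replicate numbers come from the titles. Same-numbered libraries deviated together from their rank means (correlations of 0.583 to 0.695 over 1142 genes in all 5 pairs; other pairs -0.632 to 0.630, with those of the same version near the same-numbered ones except for replicate 1). The labels do not say what a number stands for. The fit with a replicate block is given where it changes a call. Shares were compared by exact permutation over libraries (scipy 1.17.1). The rank by class term had the library as block. The edgeR scripts were tested on simulated data.

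Named genes were those of the rule and the 4 markers, the 20 highest and 10 lowest against other classes, the genes called or the 10 with the smallest p between ranks, list members with an unadjusted p under 0.05 or the 2 to 4 with the most counts, and all subtype genes. Some genes that this rule names are not reported here. Genes called only with the block, or without 2 cells rich in Hbb-bs, were named after their values were seen. UMI intervals cover counting error only.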

Additional observations from a re-analysis of the deposited data

Results flagged for a closer look

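Of 78 groups of 5 libraries examined for a library far from the others, 5 held one, and chance gives about 1 in 20. In replicate 1 of Rank1 25.3% of astrocytes held a Vip UMI, against 1.52% to 3.64% in the other Rank1 libraries. In replicate 1 of Rank4 the share was 25.3%, against 0.699% to 3.87%. The nuclear RNA Malat1 made up 8.22% of the UMIs of Vip cells in Rank4 replicate 1, against 4.45% to 5.47% in the other Rank4 libraries. Rank1 replicate 1 was not flagged for Malat1, at 11.04% against 3.97% to 6.91% in the other Rank1 libraries. Calb2 stood at 1301 CPM in the 10 Vip cells of Rank4 replicate 2, against 253 to 425 CPM. AC149090.1 stood at 2706 CPM in Rank1 replicate 1, against 397 to 1047 CPM.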

How the results depend on the processing

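The count of genes called between ranks was 0 in most alternatives, namely those of cell filters, Vip minimums, scaling, count filters, covariates other than the replicate number, DESeq2 and each software version alone. It was 6 with the replicate block, 11 with the replicate block and without the 2 cells rich in Hbb-bs, 1 with at least 20 cells a library and 1 without both replicate 1 libraries; leaving out each library in turn gave 0 to 1, and Hbb-bs was the single gene of all these counts of 1 (the 1 came without Rank1 replicate 1). For the rank by class term the count was 3 with a minimum count of 5 and 1 without both replicate 1 libraries, and 0 to 3 when each library was left out, with haemoglobin genes and, without Rank1 replicate 5, Enc1 and Serpine2 called. Thinning each cell to 1000 UMIs gave mean shares of kept cells of 0.570% in Rank1 and 0.419% in Rank4. Without thinning, the difference in the share of kept cells was 0.503 points with at least 1000 genes, and 0.214 to 0.429 when each library was left out (0.429 without Rank1 replicate 5). With the replicate block it was 0.317 points (exact permutation of signs within pairs, p = 0.312), and with 5 pairs that test cannot fall under 0.05. The share of GABAergic cells and the UMIs per cell kept their direction and side of the threshold in every alternative run. Differences between ranks in the share of cells with a subtype transcript changed sign for some genes. Without thinning, which also brings back 2 Rank4 libraries (5 against 5 in place of 5 against 3), they were 2.85 points for Cck, 2.73 for Crispld2 and 11.955 for Cnr1, from -7.47, -1.11 and -1.44. At 1000 UMIs (5 against 4 libraries) they were -2.04 for Slc5a7, -1.71 for Pthlh and 6.10 for Cnr1. With at least 10 Vip UMIs they were 0.812 for Cnr1 and -1.22 for Slc18a3, and without both replicate 1 libraries -0.489 for Slc5a7; with replicates 1, 4 and 5 only, Cxcl14 was at -5.61. Leaving out each library in turn gave -14.2 to 5.23 for Cnr1, -1.41 to 1.57 for Slc18a3, -0.604 to 11.9 for Cxcl14, -15.9 to 0.264 for Cck, -2.78 to 0 for Chat and -2.44 to 1.33 for Crispld2. Hbb-bs was at 0.31 with no UMI of another class and no high UMI total, and at 0.20 with the replicate block and without the 2 cells. The cause of these changes was not tested, except that the 2 cells left out held 370 of the 655 Hbb-bs UMIs. The alternatives of a Vip minimum of 10, of both replicate 1 libraries, of the software versions apart, of replicates 1, 4 and 5 only and of the 2 cells were chosen after seeing the data. Depth limits the fit to the more abundant transcripts, since 10 to 69 cells a library left 1142 of 30406 genes to test.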

Other observations

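Other gene families were looked at after their values had been seen, and are described here without a test of the family. The genes of cytosolic ribosomal proteins, which build the ribosome, had lower counts in Rank1 Vip cells for 74 of 77 tested genes, with a median log2 difference of -0.45 against 0.02 for all genes. Of these, 15 had an unadjusted p under 0.05 in edgeR's fit, where 4.29% of all genes did, and with the replicate block Rpl31 was called, where 0.525% of all genes were. Their summed share of the UMIs of Vip cells was 1.86% to 3.35% in Rank1 (median 2.77%) and 2.45% to 5.60% in Rank4 (median 3.55%). It was lower in Rank1 in 5 of 5 pairs, and the ranges overlapped. The median difference was below 0 in all 29 other settings of the fit. These settings use the same cells, or parts of them, so they are not independent and add no separate support. In the rank by class term, which sets Vip cells against other interneurons of the same libraries, the median of the 77 genes was -0.14 and 2 had an unadjusted p under 0.05, as had 120 of all 3686 genes (3.26%). Nuclear genes of the respiratory chain gave 50 lower and 12 higher of 62 tested, with a median of -0.19, shares of 1.29% to 3.10% in Rank1 and 1.47% to 3.29% in Rank4, and 5 of 5 pairs lower in Rank1. In the rank by class term their median was 0.02.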
